A study of Mus musculus with 6 samples.

Results

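The protein kinase C (PKC) isoform family and its relatives of the protein kinase D (PKD) group were followed as transcripts in mouse liver. Members were the rows of the deposited table named Prkci, Prkcz, Prkca, Prkcb, Prkcd, Prkce, Prkch, Prkcq, Prkd2 and Prkd3, which are 10 of 24341 gene symbols, and each had a row. The tested livers were 3 labelled Prkciflox/floxAlbCre, in which Cre recombinase driven by the albumin promoter, a promoter active in hepatocytes, acts on loxP-flanked alleles of Prkci. They were set against 3 livers labelled Prkciflox/flox, which carry the same floxed alleles without the Cre gene. Mice of both groups were of C57BL/6 background on regular chow, aged 30 weeks in the sample labels and 28 weeks in the design text. The sources used here give no sex and do not say that each library had an animal to itself, so the p-values speak only of spread among these libraries. The groups are called AlbCre livers and floxed controls below.

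PKC isoforms are serine/threonine kinases that share a catalytic domain and differ in how they are switched on. Classical isoforms need calcium and the membrane lipid diacylglycerol, diacylglycerol-only isoforms need the lipid but not calcium, and atypical isoforms respond to neither and work through protein partners such as PAR6 and p62. PKDs also bind diacylglycerol and are themselves activated by PKCs of the diacylglycerol-only class. In liver, PKCs are known for roles in insulin signalling, bile flow and cell polarity, and isoforms such as beta and theta are best known from immune cells. The comparison asks whether the transcript of any other isoform was higher in livers whose hepatocytes are labelled as lacking the Prkci product.

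Libraries differed little in estimated depth but differed in their content of non-hepatocyte transcripts. With the values taken as FPKM, read totals estimated from the steps between low values were 15200000 to 17650000 in AlbCre livers. In floxed controls they were 14780000 to 16580000. Summed over 8 macrophage markers, FPKM (fragments counted per transcript length and library size) was 485, 149.6 and 257 in AlbCre replicates 1, 2 and 3, and 380.2, 73.3 and 328 in floxed control replicates 1, 2 and 3. AlbCre replicate 1 thus held the highest level of these transcripts and floxed control replicate 2 the lowest. In bulk liver, fewer cells of a type and less RNA per cell cannot be told apart. Hepatocyte markers other than Alb, which was listed at 0 in all 6 livers, summed to 10462 to 20799 FPKM in AlbCre livers and 12974 to 26024 FPKM in floxed controls.

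No member of the family was called in either direction. With limma on log2(FPKM + 1) and a Benjamini-Hochberg adjusted p threshold of 0.05, 0 of the 9 members that passed the filter of 1 FPKM in 3 libraries were called, where 0.0274% of the 10963 genes tested were. At an unadjusted p under 0.05 limma gave 0 of the 9, against 9.93% of all genes tested. The groups did not separate for any of the 10 members, against 16.3% of genes tested whose groups did not overlap. Prkcq, which was under the filter, is among the 10 but not among the genes tested. Among the 9, 6 had a higher mean and 3 a lower mean in AlbCre livers, and their median log2 difference was 0.15, beside 0.036 over all genes tested. The share of all genes tested with a higher mean was not counted.

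**Figure D1:**
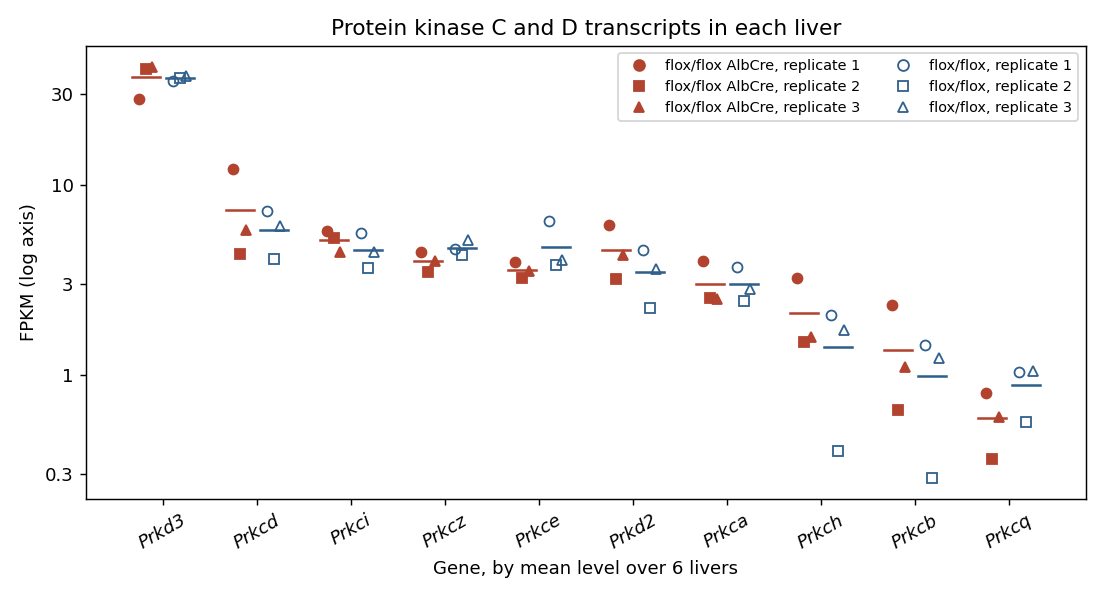
FPKM of each member in each liver on a log axis, with AlbCre livers as filled symbols on the left of each gene and floxed controls as open symbols on the right; horizontal lines are group means (n = 3 each). Prkd3 lies between 28.3 and 41.9 FPKM, above all other members, and the groups overlap for each of the 10 genes.

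Prkd3, which encodes PKD3, was the leading member by FPKM, a scale set per length so that genes can be compared. Its 6 libraries spanned 28.3 to 41.9 FPKM, and no other member came above 12.1 FPKM in any liver. Next by mean over the 6 livers stood Prkcd at 6.59, Prkci at 4.84, Prkcz at 4.31, Prkce at 4.14, Prkd2 at 3.99 and Prkca at 2.99 FPKM. Prkch at 1.75, Prkcb at 1.16 and Prkcq at 0.733 FPKM made up the low end. Apart from the step from Prkd3 to Prkcd, the ranges of all neighbours in this order overlapped. Within single livers, however, Prkca lay above Prkch, and Prkch above Prkcb, in 6 of 6.

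The 3 lowest members rest on few reads. Counted on the longest annotated transcript of each gene, which gives an upper estimate, the lowest count in any library was about 15 reads for Prkcb, 22 for Prkch and 22 for Prkcq. For Prkd3 the same estimate was 2943 to 3944 reads per library, and for Prkci 266 to 473. Counting error adds to the spread of the low members, and the log2(FPKM + 1) scale understates their differences.

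The atypical pair came first, since Prkci is the floxed gene. Prkci, which encodes PKC lambda/iota, was at 5.70, 5.26 and 4.42 FPKM in AlbCre livers and 5.57, 3.65 and 4.44 FPKM in floxed controls. A fall of the targeted transcript was not seen: its level in the lowest AlbCre liver was above that of 1 floxed control and just under that of a second one. The log2 difference was 0.15, with a 95% interval of -0.25 to 0.55 (limma adjusted p = 0.813). With 1 library left out it ran from 0.029 without floxed control replicate 2 to 0.28 without floxed control replicate 1. The row covers the whole gene, the sources used here do not name the deleted exons, and other liver cells keep the floxed alleles, so the row does not check the labels. Each direction below rests on livers named by label.

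Prkcz, which encodes PKC zeta, the other atypical isoform and the closest relative of the Prkci product, was at 4.45, 3.45 and 3.97 FPKM in AlbCre livers, against 4.59, 4.26 and 5.13 FPKM in floxed controls. Each AlbCre liver lay below the floxed control of its number, and the groups overlapped through AlbCre replicate 1. On the log2 scale it differed by -0.19 (SE 0.13, 95% interval -0.51 to 0.13, limma adjusted p = 0.667). The upper bound allows FPKM + 1 at most 1.09 times the control level in this fit. With 1 library left out that bound reached 1.19 times, without AlbCre replicate 2, and the difference ran from -0.26 to -0.12. With Prkcz divided by Prkci within each liver, the ratio was 0.781, 0.657 and 0.9001 in AlbCre livers and 0.825, 1.17 and 1.16 in floxed controls. This ratio averaged 0.779 ± 0.121 in AlbCre livers and 1.05 ± 0.194 in floxed controls (SD, n = 3 each; exact two-sided permutation p = 0.2, where the smallest possible is 0.1, and which does not use the pairs). It was lower in the AlbCre liver in 3 of 3 numbered pairs.

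Classical isoforms were represented by Prkca and Prkcb. Prkca, which encodes PKC alpha, stood at 3.95, 2.53 and 2.49 FPKM in AlbCre livers and at 3.70, 2.45 and 2.83 FPKM in floxed controls. Both groups had 1 higher liver, replicate 1, and their means of 2.99 ± 0.832 and 2.99 ± 0.638 FPKM were the same to 3 digits (SD, n = 3 each). The log2 difference was -0.0084, with a 95% interval of -0.49 to 0.47 (limma adjusted p = 0.994). An exon of Prkca overlaps Apoh on the other strand, a gene of an abundant plasma protein made by hepatocytes. The sources used here do not say whether counting used strand, so the Prkca level is uncertain.

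Prkcb, which encodes PKC beta, an isoform of B cells and myeloid cells, was at 2.31, 0.647 and 1.09 FPKM in AlbCre livers and 1.43, 0.285 and 1.22 FPKM in floxed controls. Spread within each group was wider than the gap between them. The log2 difference of 0.24 had a 95% interval of -0.60 to 1.08 (limma adjusted p = 0.865). Without AlbCre replicate 1 the difference was -0.039, and without floxed control replicate 2 it was -0.045.

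Among the diacylglycerol-only isoforms, Prkcd was the most abundant. It encodes PKC delta, which is present in hepatocytes and in many blood cells. Its levels were 12.1, 4.29 and 5.74 FPKM in AlbCre livers and 7.30, 4.07 and 6.04 FPKM in floxed controls. AlbCre replicate 1 alone stood out, and the other 5 livers interleaved. The log2 difference was 0.22 (SE 0.36, 95% interval -0.65 to 1.09, limma adjusted p = 0.888), and it turned to -0.16 without AlbCre replicate 1.

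Prkce, which encodes PKC epsilon, an isoform studied in hepatic insulin resistance, was at 3.94, 3.21 and 3.51 FPKM in AlbCre livers and 6.42, 3.76 and 3.99 FPKM in floxed controls. Each AlbCre liver lay below the control of its number, while floxed control replicate 1 stood well above the rest. Prkce had the largest log2 difference below 0 among the 9 tested members, at -0.30 (SE 0.20, 95% interval -0.78 to 0.17, limma adjusted p = 0.649). Without floxed control replicate 1 the difference was -0.10. Exons of Prkce overlap those of AC154542.1 on the same strand, so reads from the shared exons cannot be told apart.

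Prkch, which encodes PKC eta, an isoform of epithelia and lymphocytes, was at 3.24, 1.49 and 1.57 FPKM in AlbCre livers and 2.07, 0.396 and 1.72 FPKM in floxed controls. At 0.41, its log2 difference was the largest above 0 among tested members (SE 0.36, 95% interval -0.46 to 1.27, limma adjusted p = 0.749). That gap rested on the low value of floxed control replicate 2, without which it was 0.055, and was 0.16 without AlbCre replicate 1. With a pseudocount of 0.1 in place of 1 the difference was 0.72 for Prkch and 0.49 for Prkcb.

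Prkcq, which encodes PKC theta, the isoform of T cell receptor signalling, was at 0.802, 0.359 and 0.601 FPKM in AlbCre livers and 1.03, 0.561 and 1.04 FPKM in floxed controls. It reached 1 FPKM in only 2 libraries and so was not among the genes tested at first. With the filter lowered to 0.1 FPKM it differed on the log2 scale by -0.24 (SE 0.16, 95% interval -0.64 to 0.15, limma adjusted p = 0.717), in a fit that called 0.0217% of 13826 genes. Its level was lower in each AlbCre liver than in the control of its number, while the summed T and NK cell markers were 23.8, 14.9 and 21.8 FPKM in AlbCre livers and 15.4, 13.2 and 19.997 FPKM in floxed controls. These marker sums ran higher in AlbCre livers in each numbered pair, the opposite order to Prkcq, and Zap70 was the largest part of each sum, at 11.1, 11.9 and 14.0 FPKM in AlbCre livers and 9.74, 11.7 and 13.7 FPKM in floxed controls.

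**Figure D2:**
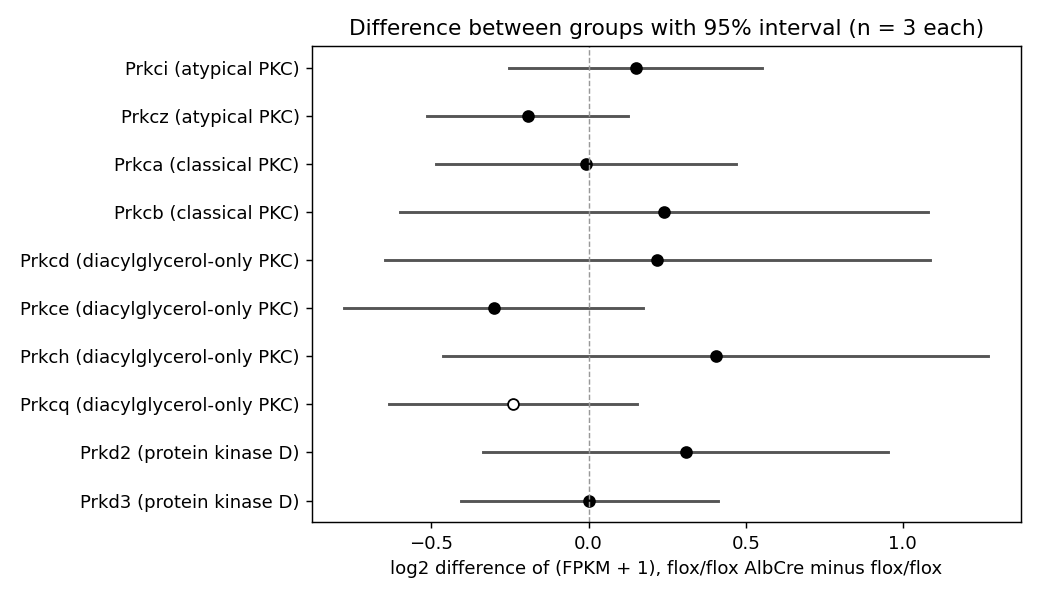
Difference between AlbCre livers and floxed controls for each member on the log2(FPKM + 1) scale (points) with its 95% interval from limma (lines), 3 livers a group. The open point is Prkcq, from the fit with the lower filter; each of the 10 intervals includes 0, and those of Prkcb, Prkcd and Prkch are the widest.

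PKD genes gave the widest contrast of levels. Prkd3 was at 28.3, 40.7 and 41.9 FPKM in AlbCre livers and 35.1, 36.5 and 37.5 FPKM in floxed controls. AlbCre replicate 1 was the lowest of the 6 and the other AlbCre livers were the highest, so the group means of 36.97 ± 7.50 and 36.4 ± 1.19 FPKM differed in spread more than in level (SD, n = 3 each). The log2 difference was 0.0029 with a 95% interval of -0.41 to 0.41 (limma adjusted p = 0.996), its sign was below 0 under quantile normalization (-0.038) or median centring (-0.053), and it was 0.18 without AlbCre replicate 1.

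Prkd2, which encodes PKD2, a kinase of lymphocytes and of secretory trafficking, was at 6.10, 3.20 and 4.26 FPKM in AlbCre livers and 4.52, 2.24 and 3.60 FPKM in floxed controls. It was the single member higher in AlbCre livers in all 3 numbered pairs, where 25.1% of genes tested were. Prkcz, Prkce and Prkcq were lower in all 3 pairs, where 16.8% of genes tested were, a set that does not hold Prkcq. For Prkd2 the log2 difference was 0.31 (SE 0.27, 95% interval -0.34 to 0.95, limma adjusted p = 0.740). With the replicate number as a block its unadjusted p was 0.0327 and its adjusted p 0.276 in limma, in a fit where 16.2% of genes had an unadjusted p under 0.05. Without floxed control replicate 2 the difference was 0.098, and without AlbCre replicate 1 it was 0.11.

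**Figure D3:**
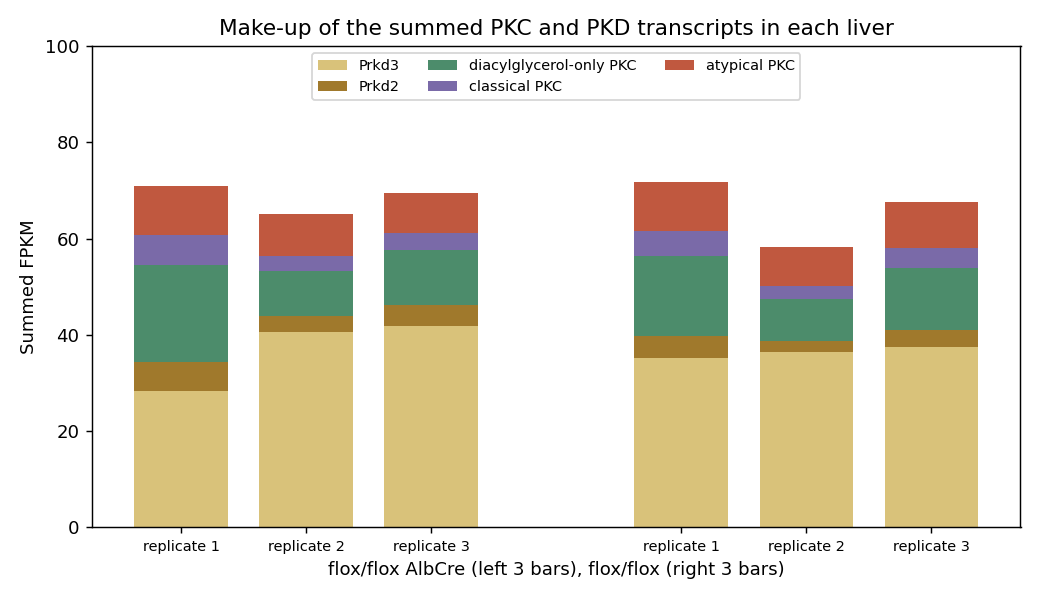
Summed FPKM of the family in each liver, split into Prkd3, Prkd2 and the diacylglycerol-only, classical and atypical PKC genes; the 3 bars on the left are AlbCre livers and the 3 on the right floxed controls. Prkd3 makes up 40.0 to 62.5% of the AlbCre bars and 48.96 to 62.7% of the control bars.

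Taken as sums, the family totalled 70.9, 65.1 and 69.6 FPKM in AlbCre livers and 71.8, 58.2 and 67.5 FPKM in floxed controls. Atypical isoforms made up 14.3, 13.4 and 12.1% of this sum in AlbCre livers and 14.2, 13.6 and 14.2% in floxed controls. Diacylglycerol-only isoforms made up 28.3, 14.4 and 16.4% in AlbCre livers and 23.4, 15.1 and 18.96% in floxed controls, with the replicate numbered 1 highest in each group. The classical share was 8.84, 4.89 and 5.15% in AlbCre livers and 7.14, 4.71 and 6.00% in floxed controls, in the same order of livers within each group. The total is dominated by 1 gene: without Prkd3 the other 9 members summed to 31.6 ± 9.67 FPKM in AlbCre livers and 29.4 ± 7.49 FPKM in floxed controls (SD, n = 3 each). No test was made on these sums.

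Members also varied between livers of the same group. Of the 10, 6 were highest in AlbCre replicate 1 and lowest in floxed control replicate 2, namely Prkci, Prkca, Prkcb, Prkcd, Prkch and Prkd2. Among all genes tested, a set without Prkcq, 15.1% had both. These are the libraries with the highest and lowest macrophage marker sums given above and the highest and lowest T and NK cell marker sums (23.8 and 13.2 FPKM). Hepatocyte marker sums ran the other way, lowest in AlbCre replicate 1 (10462 FPKM) and highest in floxed control replicate 2 (26024 FPKM). In AlbCre replicate 1 neutrophil markers also summed to 309.7 FPKM, against 8.65 and 12.4 FPKM in the other AlbCre livers and 5.26 to 29.3 FPKM in floxed controls. Neutrophil marker S100a8 stood at 139 FPKM in that library and at 4.09 to 13.1 FPKM in the other 5. The macrophage marker Cd5l followed the same order of livers as its list, at 167, 44.3 and 84.9 FPKM in AlbCre livers and 119.6, 22.1 and 103.1 FPKM in floxed controls.

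Other marker lists moved in part with these livers. Endothelial markers summed to 95.1 to 185 FPKM in AlbCre livers and 57.95 to 199.6 FPKM in floxed controls, led by Clec4g, and were lowest in floxed control replicate 2. Stellate cell markers, led by Dcn, summed to 131 to 209 FPKM in AlbCre livers and 149 to 212 FPKM in floxed controls. B cell markers were near 0, with sums of 3.99 to 6.37 FPKM in AlbCre livers and 2.56 to 5.32 FPKM in floxed controls, and their most abundant gene, Cd79b, stayed between 0.779 and 2.00 FPKM over the 6 livers. Cholangiocyte markers summed to 21.6 to 151.8 FPKM in AlbCre livers and 34.9 to 66.3 FPKM in floxed controls, led by Spp1, at 144, 13.5 and 14.0 FPKM in AlbCre livers and 55.6, 43.2 and 27.1 FPKM in floxed controls. The high sum in AlbCre replicate 1 was thus mostly Spp1. On the log2(FPKM + 1) scale the mean over this list was only 0.072 above the control mean in that liver. The part of these cell types in the levels of the members was not tested.

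**Figure D4:**
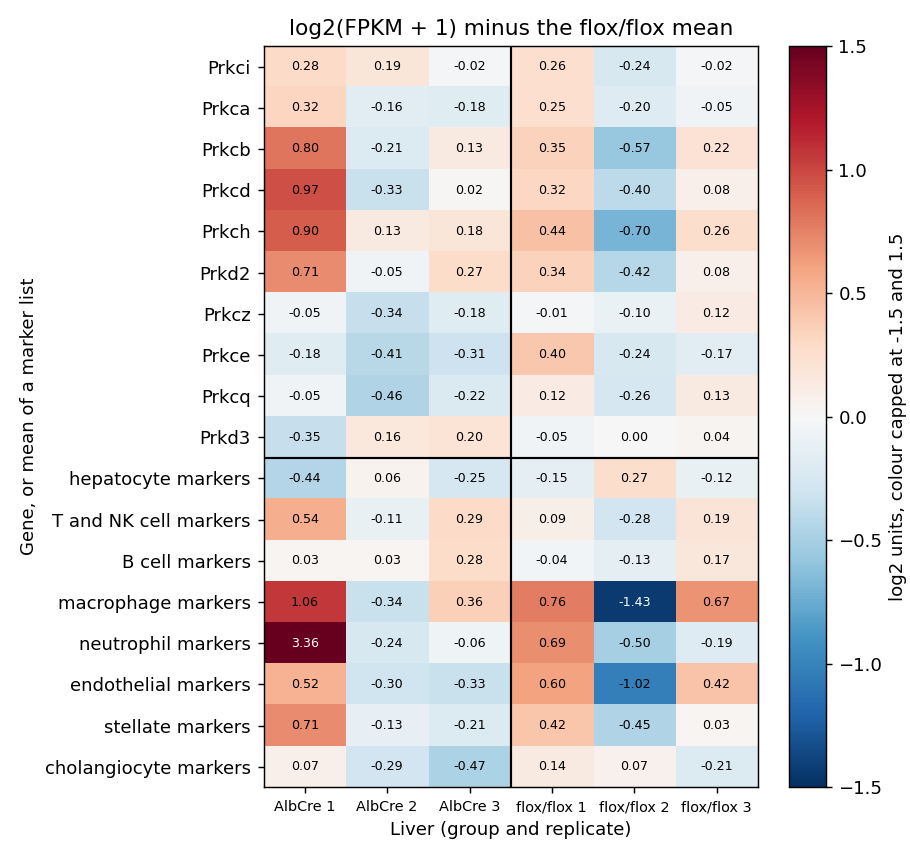
Colour and number give log2(FPKM + 1) in each liver minus the mean of the 3 floxed controls, for the 10 members (upper rows) and for the mean over each marker list (lower rows), AlbCre livers on the left. Prkcb, Prkcd, Prkch and Prkd2 are raised in AlbCre replicate 1 and lowered in floxed control replicate 2, as are the macrophage markers (1.06 and -1.43), while Prkd3 is lowered in AlbCre replicate 1.

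Both of these libraries were also left out, a choice made after seeing the data. For the 6 genes named above this must lower the difference, since they were picked for being highest in the one and lowest in the other. With AlbCre replicates 2 and 3 set against floxed control replicates 1 and 3, 0 members were called by limma while 71 genes in the table were. In that fit the log2 differences were -0.038 for Prkci, -0.27 for Prkca, -0.32 for Prkcb, -0.36 for Prkcd, -0.19 for Prkch and -0.10 for Prkd2. Prkca lay below 0 before as well, and the other 5 turned. Prkcz (-0.32) and Prkce (-0.48) kept their sign, and Prkd3 was at 0.18. The limma adjusted p of these 9 values ran from 0.281 for Prkce to 0.911 for Prkci.

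Promoter windows were compared for the members that shared their highest and lowest liver. Windows of 300 bases, from 250 before to 50 after a start site, are given by RefSeq on GRCm38.p6 for 8 of the 10 members, and Prkce and Prkch had none. The GC box, a binding motif of SP1-type factors, was searched as GGGCGG on both strands with overlapping matches counted. The first window of each of these 8 genes held at least 1 match, and 10 of their 13 windows did, where 35.7% of 32851 windows in the table hold one. Those first windows were 59.7% (Prkci) to 78% (Prkd3) G or C. Windows without a match were 40.7 to 59.3%, while a later Prkcz window with matches was 58.3%. The 32851 windows were not matched for G and C content, and its part in these matches was not tested. The sequences below show Prkci, Prkcd and Prkd2, which were highest in AlbCre replicate 1 and lowest in floxed control replicate 2, beside Prkd3, which was not. Capitals mark the GC box in either orientation.
Prkci, chr3:30995521-30995820, plus strand: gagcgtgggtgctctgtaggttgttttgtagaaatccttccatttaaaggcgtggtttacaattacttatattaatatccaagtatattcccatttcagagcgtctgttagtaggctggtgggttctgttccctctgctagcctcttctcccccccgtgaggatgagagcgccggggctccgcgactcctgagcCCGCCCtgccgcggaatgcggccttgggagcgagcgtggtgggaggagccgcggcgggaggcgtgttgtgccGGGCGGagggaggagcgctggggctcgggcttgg
Prkcd, chr14:30626159-30626458, minus strand: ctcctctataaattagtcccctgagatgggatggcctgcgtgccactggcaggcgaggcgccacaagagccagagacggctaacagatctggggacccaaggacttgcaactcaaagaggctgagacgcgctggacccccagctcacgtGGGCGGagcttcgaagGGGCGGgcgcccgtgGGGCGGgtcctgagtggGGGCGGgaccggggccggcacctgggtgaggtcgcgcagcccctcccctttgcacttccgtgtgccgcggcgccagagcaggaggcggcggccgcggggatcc
Prkd2, chr7:16842652-16842951, plus strand: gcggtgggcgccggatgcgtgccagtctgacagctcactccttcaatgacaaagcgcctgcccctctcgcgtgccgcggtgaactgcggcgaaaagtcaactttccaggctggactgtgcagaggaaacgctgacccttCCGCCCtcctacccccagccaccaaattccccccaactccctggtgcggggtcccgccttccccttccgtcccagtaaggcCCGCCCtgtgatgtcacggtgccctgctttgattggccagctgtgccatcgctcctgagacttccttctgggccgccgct
Prkd3, chr17:79020767-79021066, minus strand: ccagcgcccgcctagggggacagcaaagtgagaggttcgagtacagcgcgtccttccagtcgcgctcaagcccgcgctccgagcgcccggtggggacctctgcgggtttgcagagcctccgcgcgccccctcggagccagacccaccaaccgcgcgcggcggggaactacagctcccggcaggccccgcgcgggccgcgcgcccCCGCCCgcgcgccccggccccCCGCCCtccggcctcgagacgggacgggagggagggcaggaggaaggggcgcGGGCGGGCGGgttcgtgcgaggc

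These windows held 2 matches for Prkci, 4 for Prkcd, 2 for Prkd2 and 4 for Prkd3, so matches were present both in Prkd3 and in the members that were highest in AlbCre replicate 1. The purine box core GAGGAA, bound by the myeloid factor PU.1, was searched in the same way and occurred in windows of Prkcq, Prkd2 and Prkd3 and in 28.3% of all windows. It was not among the letters of the Prkcb and Prkcd windows. A match in these letters is a description of the window and not a site.

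Genes around the kinases were taken from 9 lists with 58 tested members, counting a gene once in each list. limma called 0 of them over all genes tested and gave 6 an unadjusted p under 0.05, all higher in AlbCre livers, which as a share is near the 9.93% of all genes tested and is no result about these lists. By mean, 44 were higher and 14 lower, with a median log2 difference of 0.13 beside 0.036 over all genes tested. The share of all genes tested with a higher mean was not counted, so these 2 counts have no baseline. With sample quality weights, limma called 2, Sqstm1 and Pick1, both higher, in a fit that called 537 genes. Genes named below include those of smallest p in their lists, a choice that favours groups without overlap. Over all genes tested, the groups of 16.3% did not overlap.

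Partners of the atypical isoforms held 3 of these 6 genes among 11 tested, where the share of all genes tested at that p was 9.93%. Sqstm1, which encodes p62, an adaptor that binds atypical PKCs, was at 341, 363 and 318 FPKM in AlbCre livers and 213, 196 and 225 FPKM in floxed controls. Every AlbCre liver lay above every control (log2 difference 0.69, SE 0.13, limma adjusted p = 0.272). Cdc42, the small GTPase that engages PAR6, was at 89.1 ± 26.1 FPKM in AlbCre livers and 86.8 ± 13.0 FPKM in floxed controls (SD, n = 3 each). The other 2 of the 3 were Pard6b, one of the PAR6 genes, and Pawr, an inhibitor that binds atypical PKCs.

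Anchoring proteins held another 2 of the 6, Pick1 and Akap13, among 6 tested, beside the same 9.93% of all genes. Pick1, a PDZ protein that binds PKC alpha, was at 10.7, 13.3 and 11.9 FPKM in AlbCre livers and 8.30, 8.74 and 7.92 FPKM in floxed controls, with no overlap (log2 difference 0.47, SE 0.12, limma adjusted p = 0.350). Gnb2l1, which encodes the scaffold RACK1, was at 283 ± 36.3 FPKM in AlbCre livers and 248 ± 19.98 FPKM in floxed controls, and Pdlim5, an enigma-family scaffold, at 14.5 ± 2.84 and 14.9 ± 1.51 FPKM in these groups (SD, n = 3 each). The sixth gene, Unc13b, a diacylglycerol-binding protein of vesicle release, was at 4.11, 2.04 and 1.70 FPKM in AlbCre livers and 1.22, 1.12 and 0.695 FPKM in floxed controls. Its groups also did not overlap (log2 difference 0.80, SE 0.27, limma adjusted p = 0.452), and its highest value was in AlbCre replicate 1.

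Enzymes that make or remove diacylglycerol gave no gene with an unadjusted p under 0.05 in limma, out of 5 phospholipases C and 4 diacylglycerol kinases tested. Plcg1, a receptor-coupled phospholipase C, was at 9.63 ± 2.01 FPKM in AlbCre livers and 10.1 ± 1.59 FPKM in floxed controls, and Plcb3, a G protein-coupled one, at 7.22 ± 0.981 and 6.97 ± 0.881 FPKM in these groups. Plce1, a Ras-regulated phospholipase C, was at 2.41, 2.37 and 2.74 FPKM in AlbCre livers and 2.26, 1.74 and 1.76 FPKM in floxed controls, without overlap (limma adjusted p = 0.576). Among the diacylglycerol kinases, Dgkz was at 17.1 ± 4.81 FPKM in AlbCre livers and 14.7 ± 2.18 FPKM in floxed controls, Dgkq at 7.14 ± 1.44 and 7.47 ± 0.654 FPKM, and Dgkd at 7.41 ± 2.08 and 5.59 ± 1.51 FPKM. Errors here are SD over 3 livers.

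Genes of PKC maturation had 8 of 10 means higher in AlbCre livers and 0 with an unadjusted p under 0.05 in limma. Their median log2 difference was 0.17, beside 0.036 over all genes tested. The share of all genes with a higher mean was not counted, so the count of 8 has no baseline. Mtor, the kinase whose complex 2 primes PKCs, was at 10.6, 11.0 and 12.9 FPKM in AlbCre livers and 9.68, 6.67 and 9.47 FPKM in floxed controls. These groups did not overlap (log2 difference 0.39, SE 0.17, limma adjusted p = 0.506), beside 16.3% of all genes tested, and Mtor was named for the smallest p in its list. The chaperone genes Hsp90ab1 and Hsp90aa1 were at 558 ± 87.1 and 44.7 ± 9.48 FPKM in AlbCre livers, against 451 ± 67.8 and 34.95 ± 7.49 FPKM in floxed controls (SD, n = 3 each).

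Substrates and further relatives likewise held 0 called genes. Of the substrates of classical and diacylglycerol-only PKCs, Insr, the insulin receptor gene, was at 20.3 ± 0.214 FPKM in AlbCre livers and 21.96 ± 2.84 FPKM in floxed controls. Add1, an adducin of the membrane skeleton, was at 17.5 ± 4.79 FPKM in AlbCre livers and 14.8 ± 2.96 FPKM in floxed controls. Ppp1r14a, an inhibitor of myosin phosphatase, was at 3.80, 2.80 and 2.09 FPKM in AlbCre livers and 6.07, 4.52 and 3.09 FPKM in floxed controls, with overlap (log2 difference -0.50, SE 0.25, limma adjusted p = 0.572). Of the PKD substrates, the sterol-binding protein gene Osbp was at 19.4 ± 3.46 FPKM in AlbCre livers and 19.4 ± 1.82 FPKM in floxed controls, the deacetylase gene Hdac5 at 14.1 ± 3.87 and 13.5 ± 1.47 FPKM, and the phosphatase gene Ssh1 at 3.89 ± 0.577 and 2.90 ± 0.955 FPKM.

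Of the related kinases outside the family, Pkn2 was at 8.26 ± 1.41 FPKM in AlbCre livers and 8.76 ± 1.31 FPKM in floxed controls. Chn2, for a chimaerin, and Rasgrp2, for a Rap exchange factor, came from the list of diacylglycerol receptors and their relatives. They were at 15.3 ± 0.743 and 8.60 ± 4.49 FPKM in AlbCre livers, against 15.1 ± 1.71 and 8.05 ± 3.00 FPKM in floxed controls (SD, n = 3 each).

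On mm10, in coordinates of GENCODE M21, Prkci spans 30995747 to 31052959 of chromosome 3 (plus strand) and Prkcz 155260129 to 155361361 of chromosome 4 (minus strand). Chromosome 17 holds Prkd3, at 78949405 to 79020816 on the minus strand, and Prkce, at 86167785 to 86657919 on the plus strand. Chromosome 7 carries Prkd2, from 16842902 to 16870464, and Prkcb, from 122288751 to 122634402, both on the plus strand. Minus-strand genes are also Prkcd (chromosome 14, 30595354 to 30626210) and Prkca (chromosome 11, 107933387 to 108343928). Plus-strand genes are also Prkch (chromosome 12, 73584796 to 73778185) and Prkcq (chromosome 2, 11172108 to 11301222). The values cover whole genes, and the 10 genes have 4 to 13 annotated transcripts each, so a shift between transcripts of a gene cannot be read from them.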

How the data were processed

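Per the labels' protocols, poly(A) RNA from frozen liver was made into strand-preserving libraries and sequenced from one end. The FPKM values were made and deposited by the authors, with 1 column per library; their range and low-value steps showed this unit, which the table does not name. The build mm10 and the tools STAR and DESeq2 are named without versions in the submitters' processing notes. The sources used here do not give the annotation, the treatment of multi-mapped reads or the use of strand.

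Genes at 1 FPKM or more in 3 or more libraries were tested with limma 3.58.1 in R 4.3.3, on log2(FPKM + 1) with an intensity trend and Benjamini-Hochberg adjustment over 10963 genes at 0.05. The script was tested on simulated data. A log2 difference is AlbCre livers minus floxed controls, with a 95% interval from limma. No pair of libraries held identical values. The members and lists were chosen with earlier results of these data known. All members are named. From each pathway list the genes called, or else the 2 of highest mean and the 1 of smallest p, are named, and from each marker list the gene of highest mean. One gene that this rule names is not reported here. Pard6b, Pawr and Akap13 were named after their values were seen. Ly6g of the neutrophil list, and Rack1, Cavin3 and Cert1, newer symbols of listed genes, matched no row.

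Read totals were estimated from genes with 1 annotated transcript over 1500 bases, under 0.5 FPKM, with 200 bases taken off the length. These totals, and the read counts of members, rest on the unit being FPKM. Of such values giving few reads, 63.9 to 67.9% lay within 0.05 of a whole read. At this depth 1 read on 2000 bases is worth 0.0283 to 0.0338 FPKM.

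Whether the shared replicate numbers pair the livers was checked on deviations from the group means over the genes tested. The correlations were 0.477, 0.279 and 0.283 for numbers 1, 2 and 3, and ran from -0.384 to 0.120 for livers of unlike number. With 3 livers a group, and the same values used for the check and the fit, this cannot establish that the livers are pairs. The sample labels used here give only the number. It was taken as a pair in a fit with the replicate block, so results by numbered pair rest on that assumption. Alternatives were other pseudocounts, filters, scalings and weights, and each library left out.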

Additional observations from a re-analysis of the deposited data

How the results depend on the processing

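Over 20 alternatives, 3 of them chosen after seeing the data, 0 members of the family were called, and 158 of 176 member values had the sign of the reported one. Many of these signs were fixed in advance. Other filters, the fit without intensity trend, the fit with some genes left out and the replicate block do not change a difference at the same pseudocount. The share of signs kept therefore overstates how stable the directions are. Signs turned with sample quality weights for Prkci (-0.022) and Prkcd (-0.053), with quantile normalization (-0.038) and median centring (-0.053) for Prkd3, and without both AlbCre replicate 1 and floxed control replicate 2 for Prkci (-0.038), Prkcb (-0.32), Prkcd (-0.36), Prkch (-0.19) and Prkd2 (-0.10). With any 1 library left out, Prkca ran from -0.17 to 0.11, Prkcb from -0.045 to 0.47, Prkcd from -0.16 to 0.49 and Prkd3 from -0.095 to 0.18. The 3 genes called in the table became 537 with sample quality weights, 1 with short RNA genes and unnamed loci left out, 71 without the 2 libraries named above and 1 to 147 with any 1 library left out, with 147 without AlbCre replicate 1. Pathway list genes called were 2 with sample quality weights. The difference in the family sum, 2.71 FPKM, ran from -1.11 (without floxed control replicate 2) to 5.69 (without floxed control replicate 1). The cause of these shifts was not tested. With the replicate block limma called 3 genes, 2 of them among the 3 called without it, and 0 members, with Prkci at 0.15 (adjusted p = 0.598); with a filter of 0.1 FPKM or a pseudocount of 0.1 the block gave 2 genes. With 3 livers a group and few reads for Prkcb, Prkch and Prkcq, a small difference of these genes would not be detectable at this depth. Wide intervals were not limited to genes with few reads, since the SE was 0.36 for both Prkcd and Prkch. The upper bounds from limma allow FPKM + 1 at 2.42 times the control level for Prkch and 2.12 times for Prkcd. They allow 2.11 times for Prkcb and 1.94 times for Prkd2. The lower bounds of these genes ran from 0.64 times for Prkcd to 0.79 times for Prkd2. Differences within these bounds are not excluded.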
